A study of Homo sapiens with 4 samples.

Results

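The genes of the DNA methylation machinery were examined for H4K20me1 in Kasumi-1, a cell line of acute myeloid leukemia with the t(8;21) translocation. The 8 genes were DNMT1, UHRF1, UHRF2, DNMT3A, DNMT3B, TET1, TET2 and TET3, and the peaks annotated to them by nearest gene, outside distal intergenic sequence, were taken as members. This gave 26 of the 25514 peaks in the deposited table, spread over 7 genes, and DNMT3B had none. The series held 4 CUT&Tag libraries of 100000 cells each. Of these, 2 came from cells with SETD8 knocked out by CRISPR/Cas9 (sgSETD8) and 2 from cells with the guide sgNT, labelled WT. In CUT&Tag an antibody, here against H4K20me1, guides a transposase that cuts out marked chromatin for sequencing. The labels do not say whether knockout cells were pooled or 1 clone, or whether a group's libraries had separate cultures as their source.

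The table holds 1 value per peak for each group and names neither group. The name of the comparison puts treated before control, but no header says which column is which, so the groups are called first-column and second-column here, by their place in the table. Every fold change is first-column minus second-column on a log2 scale. No difference had a replicate check, because no column holds a single labelled library. The 26 peaks came to attention with their values in view, so all values are a description. Over all peaks, 2791207 reads were recovered in the first-column group and 2682916 in the second-column group, with a median of 72 per peak in each. SETD8 is now named KMT5A, and its own locus had 489 reads in the first-column and 422 in the second-column group over 3 peaks, which measures neither the edit nor the enzyme. Of 10 genes that mark this cell type or its leukemia, 5 had a peak, CD34, KIT, RUNX1, RUNX1T1 and SPI1. The others, CEBPA, MPO, CD33, CD38 and LYZ, had none. Of all protein-coding genes 37.7% had a peak, and a peak of this mark is no measure of expression.

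DNA methylation in mammals sits mainly on the cytosine of CpG dinucleotides. DNMT1 copies it onto the new strand after replication, guided by UHRF1, which binds hemimethylated CpG, while DNMT3A and DNMT3B write it on unmethylated sites. TET1, TET2 and TET3 oxidize methylcytosine and so start its removal. DNMT3A and TET2 are recurrently mutated in myeloid leukemia. H4K20me1 is placed by SETD8, rises late in the cell cycle and often covers the bodies of genes.

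The starts of these genes differed both in CpG content and in whether a peak lay on them. The RefSeq windows of GRCh38.p14, from 250 bases before to 50 after a start, numbered 19 for the 8 genes, and 5 of them overlapped a peak. Of all 35116 such windows, 15.6% did so. The sequences below are those of DNMT1 (chr19:10194904-10195203, minus strand) and UHRF2 (chr9:6412949-6413248, plus strand), whose start sites lay in a peak. They are followed by the first and an inner start of TET1 (chr10:68560087-68560386 and chr10:68600224-68600523, plus strand). A start of DNMT3A with no peak (chr2:25341876-25342175, minus strand) is shown for contrast. Each reads 5′ to 3′, and capitals mark CpG dinucleotides, the substrate of the enzymes themselves.
DNMT1: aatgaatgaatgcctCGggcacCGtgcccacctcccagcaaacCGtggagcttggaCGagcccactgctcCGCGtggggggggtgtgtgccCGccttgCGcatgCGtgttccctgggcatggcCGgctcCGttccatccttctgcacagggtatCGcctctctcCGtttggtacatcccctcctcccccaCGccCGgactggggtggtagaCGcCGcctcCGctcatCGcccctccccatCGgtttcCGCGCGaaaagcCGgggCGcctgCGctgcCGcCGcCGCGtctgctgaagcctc
UHRF2: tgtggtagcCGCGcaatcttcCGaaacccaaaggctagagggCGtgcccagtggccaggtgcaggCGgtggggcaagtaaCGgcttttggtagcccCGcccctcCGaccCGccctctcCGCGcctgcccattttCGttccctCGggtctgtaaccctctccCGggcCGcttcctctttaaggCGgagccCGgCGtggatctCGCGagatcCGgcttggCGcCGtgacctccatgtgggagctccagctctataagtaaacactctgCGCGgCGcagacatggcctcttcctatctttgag
TET1 first start: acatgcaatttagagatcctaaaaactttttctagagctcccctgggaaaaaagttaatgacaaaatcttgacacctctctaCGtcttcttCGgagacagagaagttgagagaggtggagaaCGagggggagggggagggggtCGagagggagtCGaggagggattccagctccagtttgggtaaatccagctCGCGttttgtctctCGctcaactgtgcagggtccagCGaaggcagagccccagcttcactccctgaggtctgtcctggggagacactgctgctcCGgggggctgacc
TET1 inner start: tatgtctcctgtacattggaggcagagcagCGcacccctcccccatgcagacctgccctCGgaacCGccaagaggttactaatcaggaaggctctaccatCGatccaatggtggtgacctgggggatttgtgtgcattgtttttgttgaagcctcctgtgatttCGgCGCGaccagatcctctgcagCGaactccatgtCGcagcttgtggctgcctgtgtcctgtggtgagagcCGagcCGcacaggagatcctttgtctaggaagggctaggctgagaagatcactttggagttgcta
DNMT3A: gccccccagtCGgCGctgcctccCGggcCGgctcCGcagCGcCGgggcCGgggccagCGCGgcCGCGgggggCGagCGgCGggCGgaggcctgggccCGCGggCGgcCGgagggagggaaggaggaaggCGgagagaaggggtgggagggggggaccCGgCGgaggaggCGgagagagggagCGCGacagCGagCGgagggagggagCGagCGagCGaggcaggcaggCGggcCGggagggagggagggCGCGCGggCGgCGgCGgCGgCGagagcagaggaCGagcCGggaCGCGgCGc

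The DNMT1 window held 30 CpG and lay wholly inside a peak. The UHRF2 window held 26 CpG, with 156 of its 300 bases in a peak. At TET1 the first start held 10 CpG with 36 bases in a peak, and the inner start held 11 CpG and lay wholly in one. The DNMT3A window held 46 CpG, a number reached by 2.89% of all windows, and its start site lay 5146 bp from the nearest peak. Among the printed windows, a peak thus overlapped some of low CpG content and missed one of the densest. Over all windows the median was 26 CpG where a peak overlapped and 10 CpG where none did. TTTNNCGC, the E2F motif, matched once in the DNMT1 window, on the minus strand of the sequence as printed, and in none of the other 4 printed windows, against 6.89% of all windows searched on both strands. TGNGGT, the RUNX motif, matched once in each printed window except that of DNMT3A, against 43.2% of all. GGGCGG, bound by SP1, matched 2 times at UHRF2 and 3 times at DNMT3A, against 45.0% of all with at least 1 match. Matches of the 3 motifs were counted separately even where they overlap.

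DNMT1 stood lowest of the 7 genes in fold change. Its 6 peaks all lay below 0, and their summed reads were 650 in the first-column and 947 in the second-column group. The log2 ratio of these sums was −0.49, with an exact Clopper-Pearson 95% interval of −0.63 to −0.34 that covers counting error only. With both columns brought to equal reads in peaks, which subtracts 0.11 from every fold change, it was −0.60. The gene runs over 61.6 kb on the minus strand of chromosome 19 (chr19:10133346-10194953) and carried 0.974 peaks per 10 kb, the most of the 8 genes.

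At the start of DNMT1 (chr19:10194072-10195339) there were 122 reads in the first-column and 156 in the second-column group, a fold change of −0.30 (interval −0.65 to 0.05). In intron 1 of 40 (chr19:10189469-10190154) there were 125 and 209 reads in these groups, a fold change of −0.68 (−1.02 to −0.36). The intron peak was also the highest of the gene per length, at 183 and 293 scaled reads per kb in the first-column and second-column group. Further in, a peak at an inner start (chr19:10184019-10185211) had 165 reads in the first-column and 226 in the second-column group (−0.39). The widest gap of the gene was at chr19:10157779-10158937, with 96 reads in the first-column and 173 in the second-column group (−0.80, interval −1.17 to −0.42). This peak is classed as promoter, 1326 bp from an annotated start of DNMT1, although it lies 36.6 kb into the gene.
The last 2 peaks, at 44.5 and 60.7 kb, had 79 and 63 reads in the first-column group and 87 and 96 in the second-column group (−0.09 and −0.55). Of the 6 intervals 4 lay wholly below 0, and all 6 overlapped each other and held the gene's own −0.49.

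The surroundings of DNMT1 did not share these values. Within 1 Mb on either side 52 other peaks had a median fold change of 0.11, with quartiles of −0.09 and 0.29, and 16 of them were below 0. The median of chromosome 19 was also 0.11. Of 9020 genes with a peak, 584 had 6 or more, and in 11 of these every peak was below 0. DNMT1 was among the 11, with a mean peak fold change of −0.47. The list also held RBFOX3 (−0.52 over 25 peaks) and LINC01867 (−0.49 over 6 peaks). By chromosome, 5 of the 11 lie on 2, 2 on 17, and 1 each on 4, 6, 9 and 19. The share of these chromosomes among the 584 genes was not taken. The 11 genes were singled out after their values were seen.

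None of the DNMT1 peaks passed the authors' threshold. In the authors' deposited table, which was made with DESeq per the submitters' processing notes, none of the 26 member peaks reached an adjusted p under 0.05, and 0% of all peaks did. At an unadjusted p under 0.05 there was 1 of 26 in the authors' deposited table, the DNMT1 peak at 36.6 kb (p = 0.0443, adjusted p = 0.966), against 5.06% of all peaks. The next lowest unadjusted p-values in the authors' deposited table were 0.065 in intron 6 of DNMT3A and 0.0726 in intron 1 of DNMT1. In the same table none of the 26 differed by 1 or more on the log2 scale in either direction, against 2.46% of all peaks. Shares this near the background say nothing about the members.

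**Figure D1:**
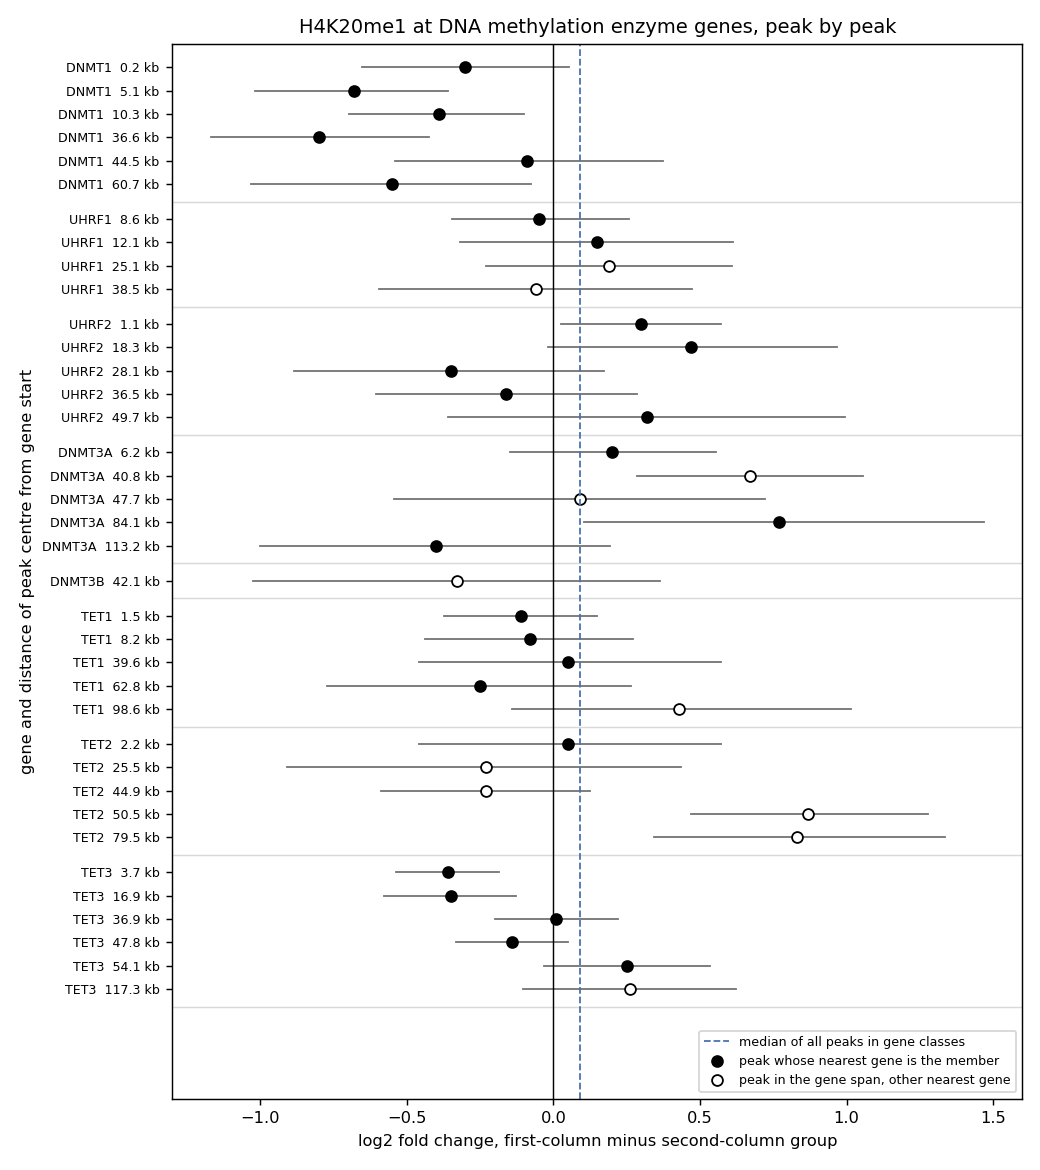
Log2 fold change (x axis, first-column minus second-column group) of each peak, listed by gene and by the distance of its centre from the gene start, with 95% counting intervals as lines. Filled points are the 26 member peaks, open points are 11 peaks inside the genes that carry another nearest gene. The 6 points of DNMT1 all lie left of 0, and those of the other genes with more than 1 peak lie on both sides.

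UHRF1, the partner that brings DNMT1 to hemimethylated DNA, had near equal counts in the groups. Its peak 8.63 kb from the gene start (chr19:4911006-4912418) had 179 reads in the first-column and 192 in the second-column group, and that in intron 2 of 16 (chr19:4914936-4915370) had 83 and 78. The log2 ratio of the sums was 0.01 (interval −0.24 to 0.26), and −0.10 with equal reads in peaks. UHRF1 and DNMT1 share chromosome 19, and the 87 peaks within 1 Mb of UHRF1 had a median of 0.12. The 3 RefSeq windows of UHRF1 held 36, 40 and 46 CpG, and none overlapped a peak, the nearest lying 640 bp from a start site.

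UHRF2, a paralog of UHRF1 that also binds modified CpG, had 5 peaks, 2 below and 3 above 0. The peak over its start (chr9:6413093-6415507) had 246 reads in the first-column and 208 in the second-column group (0.30, interval 0.03 to 0.57). At 18.3 kb there were 84 reads in the first-column and 63 in the second-column group (0.47), and at 28.1 kb, in intron 3 of 16, 55 and 73 (−0.35, interval −0.88 to 0.17). The intervals of these last peaks held 0, unlike that at the start. An exon peak had 81 reads in the first-column and 94 in the second-column group (−0.16), and one in intron 4 had 43 and 36 (0.32). Summed, the log2 ratio was 0.16 (interval −0.02 to 0.34), and 0.05 with equal reads in peaks. The 7 peaks within 1 Mb had a median of 0.24.

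Of the de novo enzymes, DNMT3A had 3 member peaks on chromosome 2 (chr2:25227874-25342590, minus strand) and none at its starts. In intron 1 of 22 (chr2:25335940-25336780) there were 145 reads in the first-column and 131 in the second-column group (0.20, interval −0.15 to 0.56). In intron 6 (chr2:25258054-25258997) there were 51 reads in the first-column and 31 in the second-column group (0.77, 0.10 to 1.47). In the 3′ UTR (chr2:25228918-25229964) there were 43 reads in the first-column and 59 in the second-column group (−0.40, −1.0 to 0.19). The intron 6 peak was the highest fold change of all 26 and one of the shallowest, and the intervals of the intron 6 and 3′ UTR peaks overlapped between 0.10 and 0.19. The sums gave a log2 ratio of 0.17 (−0.10 to 0.44), and 0.06 with equal reads in peaks.

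The nearest-gene rule left out peaks that lie inside these genes. Of 11 such peaks within the RefSeq spans, 2 were in DNMT3A and named for the microRNA gene MIR1301. The peak in intron 2 (chr2:25301368-25302227) had 145 reads in the first-column and 95 in the second-column group (0.67, interval 0.28 to 1.06), and that in intron 3 had 45 and 44. With these, 4 of the 5 DNMT3A peaks lay above 0 and the log2 ratio was 0.31 (0.10 to 0.52), and 0.20 (−0.01 to 0.40) with equal reads in peaks. DNMT3B, which had no member, held 1 peak in intron 20 of 22 (chr20:32803919-32805072), named for MAPRE1, with 33 reads in the first-column and 43 in the second-column group (−0.33, −1.03 to 0.36). At 28.5 and 35.8 scaled reads per kb in these groups it was among the faintest of the 37 peaks. The other 8 were 4 in TET2, 2 in UHRF1 and 1 each in TET1 and TET3.

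**Figure D2:**
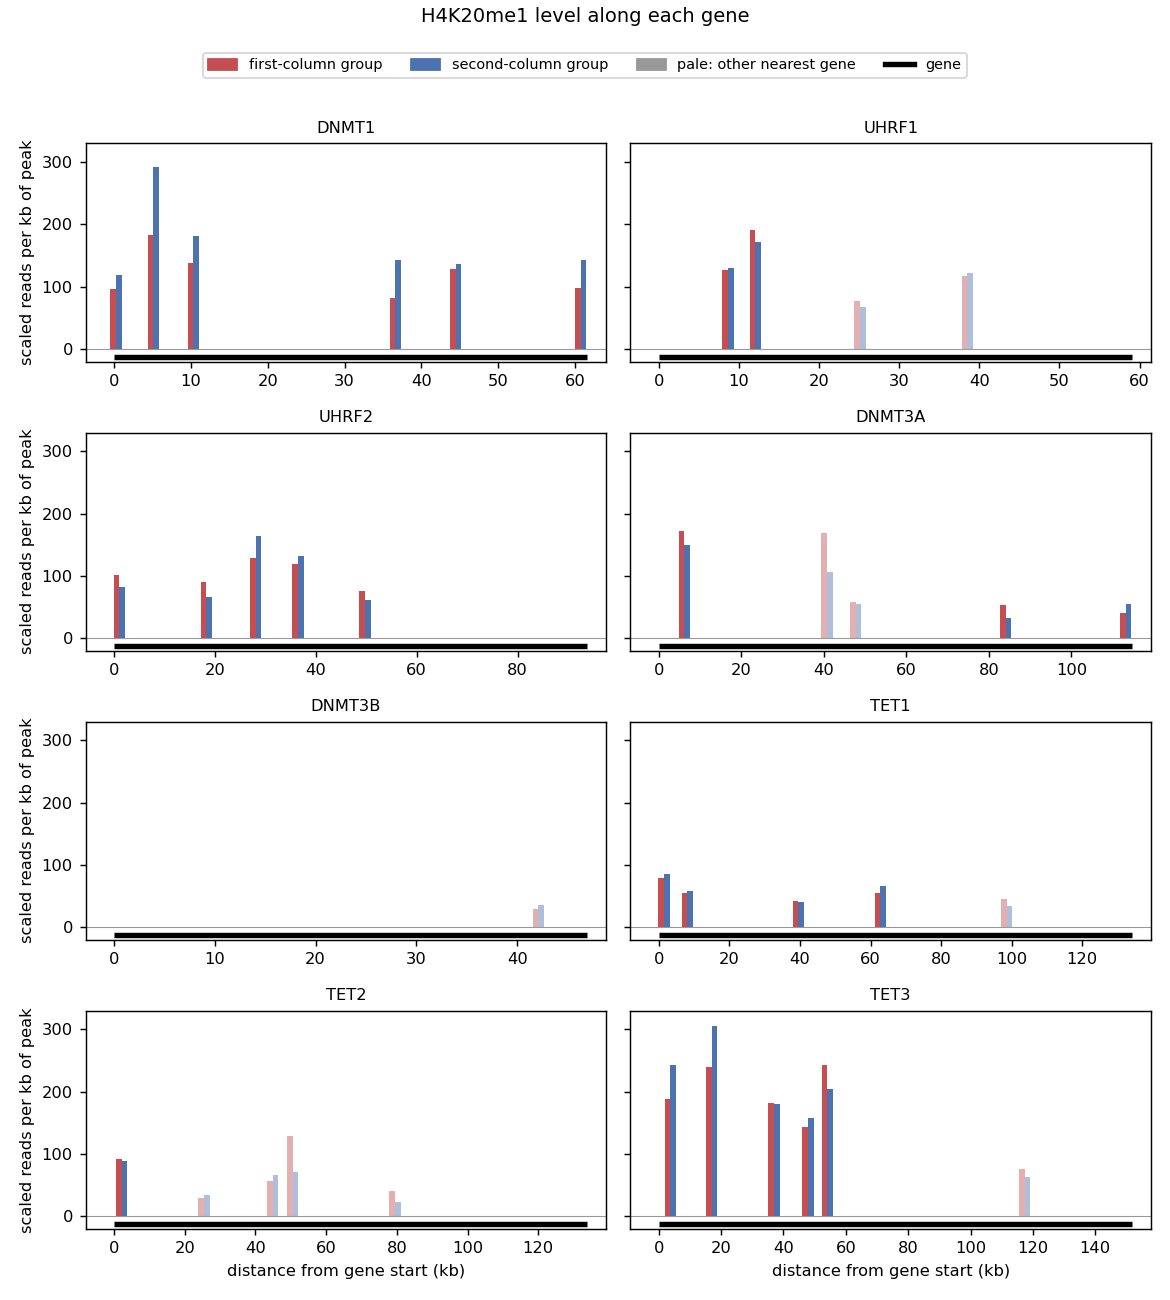
Scaled reads per kb of peak (y axis) against the distance from the gene start in kb (x axis) in each of the 8 genes, with the first-column group in red left of the second-column group in blue, and pale bars for peaks with another nearest gene. Bars mark peak centres and have a fixed width. TET3 and DNMT1 reach 305 and 293 in the second-column group, and the single peak of DNMT3B stays at 35.8.

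TET3 carried the deepest peaks of the set, and those near its start lay below 0. Over an annotated start inside the gene, with the peak centre at 3.73 kb (chr2:73986125-73988605), there were 468 reads in the first-column and 625 in the second-column group (−0.36, interval −0.54 to −0.19). The first RefSeq start site of TET3 itself lay 1216 bp from the nearest peak. At 16.95 kb (chr2:73999982-74001184) there were 288 reads in the first-column and 382 in the second-column group (−0.35, −0.58 to −0.13). In intron 2 of 10 there were 3 peaks, with 370, 425 and 224 reads in the first-column and 382, 487 and 196 in the second-column group (0.01, −0.14 and 0.25). Fold changes were thus below 0 at the 2 peaks nearest the start and above 0 at 54.1 kb, where the interval held 0 (−0.03 to 0.53). Another peak, in the last exon and named for BOLA3, lay 117.35 kb from the gene start. It had 138 and 120 reads in the first-column and second-column group (0.26, interval −0.10 to 0.62). The sum over the 5 members gave a log2 ratio of −0.17 (−0.26 to −0.07), and −0.28 with equal reads in peaks.

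Both DNMT3A and TET3 lie in the first 90 Mb of chromosome 2, where the 651 peaks had a median fold change of −0.19. The 26 peaks within 1 Mb of TET3 had a median of −0.13, close to the gene's own −0.17. The 19 peaks within 1 Mb of DNMT3A had one of −0.06, with 13 below 0, while DNMT3A stood at 0.17. What part the region has in either value was not tested.

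TET1 gave fold changes between −0.25 and 0.05 at its 4 peaks. The peak at its start (chr10:68560351-68563324), 15 bp from the first RefSeq start site, had 234 reads in the first-column and 263 in the second-column group (−0.11). Introns 1, 2 and 3 of 11 had 129, 66 and 59 in the first-column and 142, 66 and 73 in the second-column group. All 4 intervals held 0, and the log2 ratio of the sums was −0.10 (−0.28 to 0.08). The 27 peaks within 1 Mb had a median of 0.24. A further peak, in intron 6 and named for CCAR1, had 61 and 47 reads in the first-column and second-column group (0.43, −0.14 to 1.01).

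TET2 had a single member peak, 224 bp inside a transcript start (chr4:105147681-105148392), with 66 reads in each group and a fold change of 0.05. Most of the signal in the gene lay in 4 peaks named for TET2-AS1, a noncoding gene that overlaps TET2. In intron 2 of 2 of a TET2 transcript, chr4:105195869-105196986 had 144 reads in the first-column and 82 in the second-column group (0.87, interval 0.47 to 1.28), and chr4:105224258-105226576 had 96 and 56 (0.83, 0.34 to 1.34). In the authors' deposited table these had unadjusted p-values of 0.0309 and 0.0456 and adjusted values of 0.963 and 0.966. The pair nearer the start, at 25.5 and 44.9 kb, had 36 and 122 reads in the first-column and 44 and 149 in the second-column group (−0.23 each). TET2 thus held fold changes on both sides of 0 that the member peak does not show, and with all 5 peaks the log2 ratio was 0.28 (0.09 to 0.48), and 0.17 (−0.03 to 0.36) with equal reads in peaks. The peak at 25.5 kb lay 6049 bp downstream of the nearest start of TET2-AS1. That at 44.9 kb lay 11651 bp upstream of such a start, and those at 0.87 and 0.83 lay 17806 and 46195 bp upstream. CUT&Tag reads carry no strand of transcription, so signal of TET2 and of TET2-AS1 cannot be told apart where the genes overlap. This limit holds downstream of the TET2-AS1 start, not at the peaks upstream of it.

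**Figure D3:**
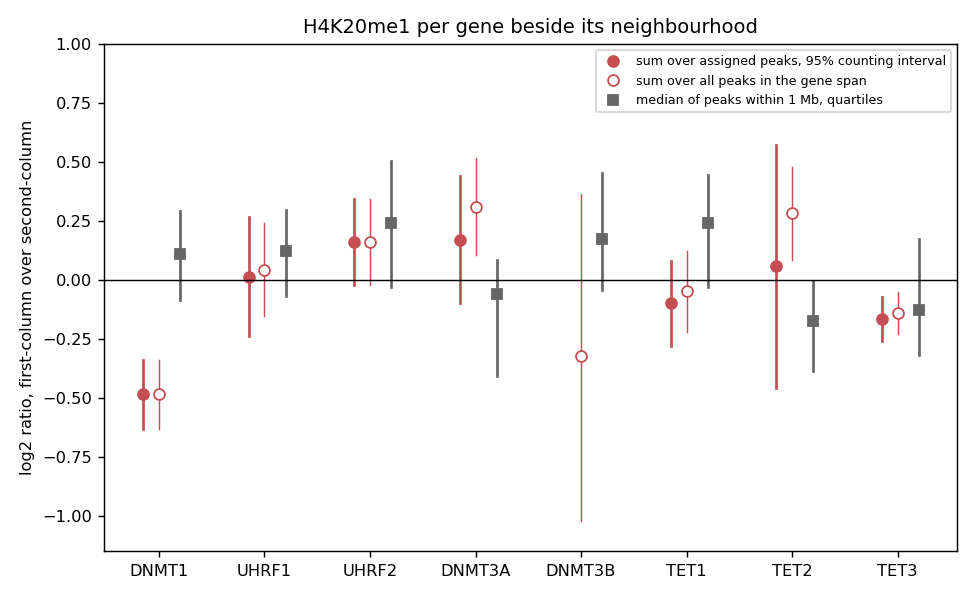
Log2 ratio of summed reads per gene (y axis, first-column over second-column group), filled for member peaks and open for all peaks in the gene span, with 95% counting intervals, beside the median and quartiles of other peaks within 1 Mb (grey squares). DNMT1 lies at −0.49 beside neighbours at 0.11, and TET3 at −0.17 beside neighbours at −0.13.

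In order of the log2 ratio of member reads, the genes ran DNMT1 (−0.49), TET3 (−0.17), TET1 (−0.10), UHRF1 (0.01), TET2 (0.06), UHRF2 (0.16) and DNMT3A (0.17). The interval of DNMT1 did not reach that of TET3, its neighbour in this order (−0.26 at its lower end), but the 2 overlapped when 1 read was kept of every 2 (DNMT1 −0.69 to −0.28, TET3 −0.30 to −0.04). All other neighbours in the order had overlapping intervals. Per length of peak the order, taken here by the first-column group, was another one. TET3 had 185 and 207 scaled reads per kb in the first-column and second-column group, UHRF1 142 and 141, and DNMT1 117 and 164. In the second-column group DNMT1 stood above UHRF1. UHRF2 followed with 101 and 90.7, TET2 with 92.4 and 89.3, DNMT3A with 84.4 and 75.2, and TET1 with 61.5 and 65.9. The median of all peaks in gene classes was 79.8 scaled reads per kb in the first-column and 74.8 in the second-column group, so TET1 lay under it in both. The TET2 level rests on its 1 member peak. Over all 5 peaks in its span TET2 had 61.5 and 50.6 in these groups, also under that median.

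By role, the 13 peaks grouped here as maintenance, those of DNMT1, UHRF1 and UHRF2, had 9 below and 4 above 0 with a median fold change of −0.16. UHRF2, placed there as a paralog of UHRF1, gave 5 of the 13, so the group is not one of maintenance factors alone. The 7 outside DNMT1, a split made after values were seen, had 3 below and 4 above 0 with a median of 0.15. The medians were 0.20 for the 3 peaks of DNMT3A and −0.095 for the 10 of the TET genes, 6 below and 4 above 0. Over all 26 peaks 16 lay below 0, or 61.5%, and the median was −0.10. Of the 19703 peaks in the same annotation classes 38.2% lay below 0, and their median was 0.09. Without DNMT1, a choice made after its values were seen, the median of the others was −0.02. Counting intervals lay wholly below 0 in 6 peaks, 4 in DNMT1 and 2 in TET3, and wholly above 0 in 2, at the start of UHRF2 and in intron 6 of DNMT3A. The other 18 held 0. With equal reads in peaks the tally was 8 below and 0 above. The share of all peaks with such intervals was not taken, so the tally is no result about the members. The member peaks were of ordinary width, 427 to 2976 bp with a median of 1052 bp, against 1132 bp for all peaks in these classes, and 19 of 26 had at least the median signal of the table.

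The annotation classed 12 member peaks as promoter, 12 as intron, and 1 each as exon and 3′ UTR. The 12 promoter peaks had a median fold change of −0.205 with 9 below 0, and the other 14 a median of −0.035 with 7 below 0. All promoter peaks of the table had a median of 0.09 and other gene peaks one of 0.10. DNMT1 alone gave 5 of the 12 promoter peaks, of which 1 lies at the start of the full gene.

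Genes that work with these enzymes were grouped by role into 6 lists. Of their 75 genes, 49 had a peak (65.3%), against 37.7% of 20056 protein-coding genes. The gene means of peak fold change were below 0 in 21 and above 0 in 28, with a median of 0.06, while over all 9020 genes 38.2% were below 0 and the median was 0.08. Among their 102 peaks, the authors' deposited table lists none with an adjusted p under 0.05 and 2 with an unadjusted p below that limit, against 5.06% of all peaks. The median of all lists was −0.05 with equal reads in peaks.

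Partners of maintenance methylation had the lowest median of the 6 lists, −0.165, with 5 of 7 genes below 0. CDCA7L, a paralog of the HELLS activator CDCA7, stood at −0.63 with its 1 peak (interval −0.95 to −0.32). It had 138 reads in the first-column and 222 in the second-column group. PCNA, the replication clamp that binds DNMT1, stood at −0.45 with its 1 peak (interval −0.92 to 0.01). CDCA7, also with 1 peak, stood at −0.42 (−0.81 to −0.03). LIG1, the ligase of replication that UHRF1 binds, stood at −0.165, and the interval of its summed reads held 0 (−0.54 to 0.20). USP7, the deubiquitinase that binds DNMT1 and UHRF1, was the highest of the list at 0.33 over 7 peaks. It had 991 reads in the first-column and 804 in the second-column group (interval of the sums 0.22 to 0.49). TRIM28, a corepressor that imprint-guarding zinc-finger proteins recruit, had the highest mean signal of the list and stood at 0.19. It had 350 reads in the first-column and 319 in the second-column group (interval −0.03 to 0.41). PCNA, CDCA7, LIG1 and TRIM28 here, and OGT, EHMT1 and TDG in the lists that follow, were named after their values were seen.

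The recruiters and modifiers of TET had 4 of 7 genes below 0 and a median of −0.065, which was 0.03 in peaks of at least median signal. Their range ran from EBF1 at −0.28, a B cell factor that had 27 reads in the first-column and 34 in the second-column group, to HIF1A, the oxygen-regulated factor, at 0.15 over 4 peaks. The median gene was OGT, the sugar transferase that binds TET proteins, with a mean of −0.065 over 2 peaks but 338 summed reads in the first-column and 329 in the second-column group, a log2 ratio of 0.10.

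Partners of de novo methylation had a median of 0.15, with 3 of 5 genes above 0. They ran from ZMYM2 at −0.17 to NSD3, a writer of H3K36 methylation, and EHMT1, both at 0.18. NSD3 had 1 peak (interval −0.25 to 0.61), and EHMT1 had 7 (interval of the sums 0.05 to 0.29). Base excision genes, which replace the bases that TET enzymes oxidize, had 7 of 10 above 0 and a median of 0.16. POLB, the polymerase of this repair, stood at 0.47 with 141 reads in the first-column and 106 in the second-column group. APEX1, its endonuclease, stood at −0.68 with 60 reads in the first-column and 100 in the second-column group. TDG, the glycosylase that removes oxidized methylcytosine, stood at 0.15.

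Readers of CpG spanned the widest range, with 7 of 10 above 0 and a median of 0.12. MBD2, which binds methylated CpG, stood at 0.71 with 77 reads in the first-column and 49 in the second-column group. ZBTB4, a zinc-finger reader, stood at 0.55 with 372 reads in the first-column and 264 in the second-column group. CXXC4, a regulator of TET2, stood at −0.65 with 22 reads in the first-column and 36 in the second-column group (interval −1.49 to 0.15). The low end of the range thus rests on 1 peak whose interval held 0. Genes that supply the methyl donor or 2-oxoglutarate had 6 of 10 above 0 and a median of 0.11, from MAT2A (−0.15), which makes S-adenosylmethionine, to MAT1A, its liver form (0.40).

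**Figure D4:**
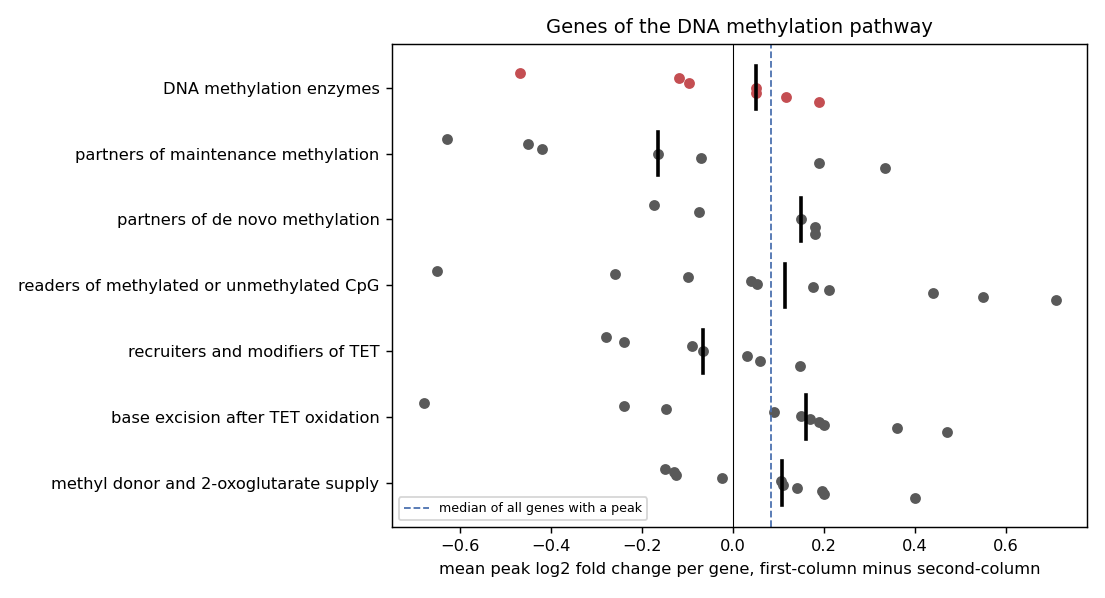
Mean peak log2 fold change per gene (x axis, first-column minus second-column group) in the DNA methylation enzymes (red) and the 6 lists (grey), with a black bar at each list's median and a dashed line at the median of all genes, 0.08. Every list holds genes on both sides of 0, and DNMT1 at −0.47 is the lowest of the enzymes.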

How the data were processed

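H4K20me1 CUT&Tag was labelled for 4 libraries, 2 SETD8 knockout and 2 control. Per the submitters' processing notes, cutadapt, Bowtie2 and build hg38 were used for all 4 libraries, and DESeq is named for 2 of them, those without #2 in their title. The peak caller, how duplicates were handled and which libraries entered each value are not stated in the labels. The 1 table deposited by the authors gives log2 scaled reads per peak in 2 unnamed groups, the log2 fold change, and an unadjusted and an adjusted p-value. The meaning of its columns was settled from the values: the fold column equals the difference of the group columns within 0.01.

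Low log2 values (1.5 to 5.5) deposited by the authors all equalled log2 of a whole number plus 1 constant per column, 0 and −0.057, within 0.0051 (5676 first-column and 5851 second-column values). A column is therefore 1 set of read counts times a factor, from a single library or from merged ones. Reads of all peaks were recovered by this step, which rounding in the file limits to 0.347%. Scaled reads are the deposited values on a linear scale. Fold changes are differences of the group columns, and per-gene ratios come from summed reads, so the 2 can differ by 0.01 for the same peak. With 1 column per group no test of conditions was made. With neither a no-antibody library nor a spike-in in use here, a loss of the mark that is even over the genome cannot show. The recovery of reads and the intervals were tested on simulated counts that held counting error only, the error the intervals assume. The simulation had no duplicates, fragments counted at both ends or spread between libraries. It therefore cannot show whether the intervals are wide enough for these data. Gene spans and promoter windows came from RefSeq (GRCh38.p14), where all 8 genes were found.

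Members and lists were chosen with earlier results of these data known. Named beside the members were, over the 6 lists, the 2 highest and 2 lowest gene means of at least median signal, the highest and lowest of each list at any signal, and a few genes chosen after their values were seen, which the text names. With 2 values per peak, no gene was ranked by likeness of pattern. Alternatives covered thresholds, scaling, signal, assignment to host genes, promoter reach and distal peaks. Python 3.11.15, scipy 1.17.1 and matplotlib 3.10.9 were used.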

Additional observations from a re-analysis of the deposited data

How the results depend on the processing

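No paired analysis was possible because the table holds 1 unnamed column per group, and for the same reason no library could be left out in turn. Of 119 values under alternatives, 114 stayed within the counting interval of a gene ratio, the binomial interval of a median, or the same or a near count. Among the 114 is the tally of intervals wholly below 0, 8 in place of 6. Also among them are 7 gene ratios with 1 read kept of every 2, which cannot move because only their intervals change. The other 5 of the 119 did not stay so. The count of member peaks past the threshold of the authors' deposited table was 1 in place of 0 at an unadjusted p under 0.05, a looser limit. The TET2 ratio was 0.64 in place of 0.06 with exon and intron peaks given to their host gene, which adds 2 intron peaks to its 1. The TET3 ratio was −0.28 in place of −0.17 with equal reads in peaks, which subtracts 0.11 from every value, and −0.25 in place of −0.14 over all peaks in its span. The same scaling left 0 in place of 2 member peaks with an interval wholly above 0. That scaling and no scaling also put UHRF1 at −0.10 and −0.04 in place of 0.01, and equal reads put TET2 at −0.06. These changes of sign count among the 114, as do others. The median of maintenance peaks was 0.15 in place of −0.16 without DNMT1. That of all lists was −0.05 in place of 0.06 with equal reads in peaks. That of recruiters and modifiers of TET was 0.03 in place of −0.065 in peaks of at least median signal. The median over member peaks ran from −0.21 with equal reads in peaks to −0.02 without DNMT1, and stayed below 0 under all 8 alternatives run. The TET2 ratio could not be given in peaks of at least median signal, where it has none. No member peak was distal intergenic, so adding such peaks could not move the values of the members. If both ends of each fragment were counted, intervals are too narrow: with 1 read kept of every 2, DNMT1 ran from −0.69 to −0.28 and TET3 from −0.30 to −0.04, so the genes no longer stood apart. Peaks of 31 reads, such as intron 6 of DNMT3A, leave intervals over 1 log2 unit wide.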
